A study of Mus musculus with 4 samples.

Results

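The anterior second heart field is the part of the pharyngeal mesoderm that adds cells to the arterial pole of the growing heart tube. Its progenitors also give rise to the muscles of the head and branchial arches, the branchiomeric muscles. They lie in the pharyngeal mesoderm behind and around the heart tube and stay undifferentiated while they divide. The LIM-homeodomain factor Isl1 and the T-box factor Tbx1 are the field's best known regulators, and the fibroblast growth factors Fgf8 and Fgf10 are ligands made there. FGF ligands act through receptor tyrosine kinases and the MAP kinase cascade. That cascade induces ETS factors of the Etv group together with feedback inhibitors of the Spry, Spred and Dusp families, so these genes serve as a readout of FGF signalling.

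Anterior second heart field progenitors were taken here as cells of the E8.0 and E8.25 libraries chosen by their own transcripts. A cell had to hold at least 1 UMI (a distinct captured molecule) of Isl1, at least 1 of Tbx1 and at least 1 of Fgf8 or Fgf10. It also had to have fewer than 3 of the sarcomere genes Tnnt2, Myl4, Myl7, Actc1, Ttn and Myh6 at 2 or more UMIs, and no UMI of the endothelial cadherin Cdh5. The rule selected 965 of the 10531 retained cells of these libraries, out of 22625 retained cells in all 4. Of the 7577 cells at E8.0, 609 were selected (8.04%, exact 95% interval 7.43 to 8.67%), and of the 2954 cells at E8.25, 356 were selected (12.1%). These shares depend on depth. When each cell was thinned to 10000 UMIs before the rule was applied, 3.91% of cells at E8.0 and 3.96% at E8.25 were selected.

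All cells came from Mesp1Cre;Rosa26-GFPflox/+ embryos of the Swiss Webster strain, in which Cre made in early mesoderm switches on GFP permanently. Living GFP-positive cells were sorted from pooled embryos of both sexes, with the rostral part of the body dissected for both early stages and the heart plus pharyngeal apparatus for E9.5 and E10.5. There was 1 library per stage, no treatment and no group without the transgenes. Tissue dissected and stage therefore changed together after E8.25 and cannot be told apart.

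The median depth of the progenitors was 23340 UMIs per cell at E8.0 and 35558.5 at E8.25, close to the medians of all retained cells (21663 and 35467). Between 16 and 88 cell barcodes occurred in both libraries of a pair, and none of them was a progenitor in both. Cells ranked highest by Scrublet, which scores droplets that may hold 2 cells, made up 9.52% of the progenitors at E8.0 and 4.21% at E8.25. Of all retained cells they made up 6.07% and 2.37%. The rule keeps these highest-ranked cells, and the counts of genes were repeated without them.

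The 4 genes that define the field were used by the rule, so their levels are a description. In UMIs scaled to a total of 1e6 (CPM, the usual unit) of the summed progenitors, Isl1 stood at 113 in the E8.0 library and 86.6 in the E8.25 library, and Tbx1 at 144 and 158. Fgf8 stood at 205 and 122 CPM and Fgf10 at 26.2 and 25.7. Most progenitors carried Fgf8. At E8.0, 356 had Fgf8 alone, 219 had both ligands and 34 had Fgf10 alone, and at E8.25 these numbers were 173, 154 and 29. In the RefSeq annotation of GRCm38, the assembly named mm10 in the study, Isl1 lies on chromosome 13 (116298270 to 116309688) and Fgf10 on the same chromosome (118714699 to 118792573). Tbx1 lies on chromosome 16 (18580979 to 18590671) and Fgf8 on chromosome 19 (45736491 to 45742941).

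Many progenitors lay just inside the gate. Isl1 was at exactly 1 UMI in 213 of 609 cells at E8.0 and 114 of 356 at E8.25, and Tbx1 in 145 and 34. Just outside it, 533 cells at E8.0 and 335 at E8.25 lacked only Isl1, 379 and 98 lacked only Tbx1, and 241 and 136 lacked only a ligand. A further 45 and 25 cells passed all 3 gene criteria but had too many sarcomere genes. The E8.0 cells lacking only Tbx1 held Nkx2-5, a cardiac homeobox factor, at 26.5 CPM and those lacking only Isl1 held it at 6.70 CPM, against 62.8 CPM in the progenitors.

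To ask what else these cells expressed, the progenitors were compared with other cells of the same libraries that met the same sarcomere and Cdh5 limits. Isl1-only cells had Isl1 and no UMI of Tbx1, Fgf8 or Fgf10 (1080 cells at E8.0 and 112 at E8.25). Tbx1-only cells had Tbx1 and none of the others (623 and 541 cells), and another group had none of the 4 genes (2510 and 721 cells). UMIs were summed per library and population and tested with edgeR, with the library as a block. The 11 genes of the rule were left out of the tests. The residual spread is how much the differences between populations varied between the stages, since no stage had a second library, and the populations are not independent cultures or animals. In such sums, more cells expressing a gene and more RNA per cell cannot be told apart.

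Against Isl1-only cells, 448 of 13072 genes were called higher in progenitors (3.43%) and 356 lower (2.72%) at an adjusted p under 0.05. Against Tbx1-only cells, 118 were higher (0.903%) and 89 lower (0.681%). Against cells with none of the 4 genes, 643 were higher (4.92%) and 728 lower (5.57%). Without the library block the totals were 29, 0 and 34 genes, and with 13072 genes tested 1255, 627 and 1354 of them had an unadjusted p under 0.05. The progenitors are the same sums in all 3 comparisons. Of the higher genes, 86 were called against both single-factor populations, out of 448 and 118, and 27 of the lower genes were, out of 356 and 89.

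The comparator populations differed from the progenitors in cell content as well. The 5 erythroid genes summed to 254 CPM in progenitors, 293 in Isl1-only cells and 684 in Tbx1-only cells at E8.0, and to 4183, 20581 and 21522 CPM at E8.25. The 8 genes of caudal and primitive streak mesoderm summed to 34.2 CPM in progenitors and 274 CPM in Isl1-only cells at E8.0. The 8 endodermal and epithelial genes summed to 12.1 and 13.5 CPM in progenitors and lay between 13.3 and 28.8 CPM in the comparators. Other sums were not lowest in progenitors. The 8 genes of endothelium and blood vessel summed to 195 CPM in progenitors at E8.25, above the comparators at 129 to 174 CPM. At E8.0 they summed to 116 CPM, below the comparators at 193 to 355 CPM. The 8 paraxial and somite genes summed at E8.0 to 204 CPM in progenitors and 92.4 CPM in Isl1-only cells. They summed to 343 CPM in Tbx1-only cells and 297 CPM in cells with none of the 4 genes. At E8.0, 3.52% of Isl1-only cells, 6.42% of Tbx1-only cells and 3.11% of cells with none of the 4 genes were ranked highest by Scrublet. At E8.25 these shares were 0%, 2.40% and 0.277%, and the share in progenitors was above all of them in each library. The part of all these cells in the differences below was not tested, apart from repeats without cells rich in erythroid UMIs and without those ranked highest by Scrublet.

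Regulators of the second heart field differed from cells with Isl1 alone in both directions. Of 14 such regulators, 8 were called higher and 4 lower against Isl1-only cells, with a median log2 fold change of 1.40 (0.00 over all genes). Against Tbx1-only cells 8 were higher and 0 lower by edgeR. Nkx2-5 stood at 62.8 and 35.7 CPM in progenitors (E8.0 and E8.25), at 8.52 and 7.81 CPM in Isl1-only cells and at 3.37 and 2.73 CPM in Tbx1-only cells. Its log2 fold change was 2.67 ± 0.18 (SE over 2 sums per population, edgeR adjusted p = 0.000648) against the former and 3.96 ± 0.19 (adjusted p = 0.000208) against the latter. The myocyte enhancer factor Mef2c stood at 51.3 and 39.4 CPM against 13.6 and 20.1 CPM in Isl1-only cells (log2 fold change 1.54 ± 0.25, edgeR adjusted p = 0.0153). In each library the progenitors held more of both transcripts than any of the 3 comparators.

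The homeobox genes Nkx2-6 and Tlx1 showed the largest folds of this list, from low levels. Nkx2-6, a relative of Nkx2-5 on chromosome 14 (69171802 to 69175540), stood at 8.62 and 19.8 CPM in progenitors and at 0.461 and 0.473 CPM in Isl1-only cells (log2 fold change 4.41 ± 0.56, edgeR adjusted p = 0.00629). Tlx1, on chromosome 19 (45150092 to 45156943), stood at 8.04 and 18.1 CPM against 0.576 and 0.71 CPM (4.06 ± 0.33, adjusted p = 0.0011). Both were nearly absent from all 3 comparators, where neither exceeded 1.03 CPM in either library. Detection was correspondingly sparse. After each cell was thinned to 10000 UMIs, Nkx2-6 was found in 8.40% of progenitors at E8.0 and 13.0% at E8.25. Of cells with 2 or more UMIs of Cdh5, which should lack it, 0.452% of 221 had a UMI at E8.0 and 0 of 113 at E8.25, which allows a share of up to 2.65% by the limit of 3 counts.

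Pharyngeal mesoderm factors were shared with Tbx1-only cells in part. The transcriptional cofactor Eya1 was called higher than in Isl1-only cells (log2 fold change 2.03 ± 0.30, edgeR adjusted p = 0.0106). Against Tbx1-only cells its log2 fold change was 0.13 ± 0.24 (adjusted p = 0.896). The homeobox factor Six2 was higher than in either population, at 27.1 and 31.3 CPM against 4.03 and 2.37 CPM in Isl1-only and 9.37 and 11.6 CPM in Tbx1-only cells. Among the single-factor populations, Eya1 and the forkhead factor Foxc2 thus separated the progenitors from Isl1-only cells alone by these calls. Eya1 was also called higher than in cells with none of the 4 genes. The difference between the comparisons was not tested.

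Some cardiac regulators ran the other way against Isl1-only cells. Gata4 (log2 fold change -2.18 ± 0.24, edgeR adjusted p = 0.00351) and Gata5 (-1.63 ± 0.13, adjusted p = 0.00102) were lower in progenitors, as were Hand2 and the chromatin remodelling subunit Smarcd3. Gata6 did not pass the test there (-0.68 ± 0.18, adjusted p = 0.0731). Against Tbx1-only cells Gata5 (0.81 ± 0.14), Gata6 (1.10 ± 0.19) and Hand2 (1.01 ± 0.13) were called higher instead. For Hand2 the progenitors at 28.6 and 15.9 CPM stood between Isl1-only cells at 65.9 and 26.7 CPM and Tbx1-only cells at 14.4 and 7.67 CPM.

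**Figure D1:**
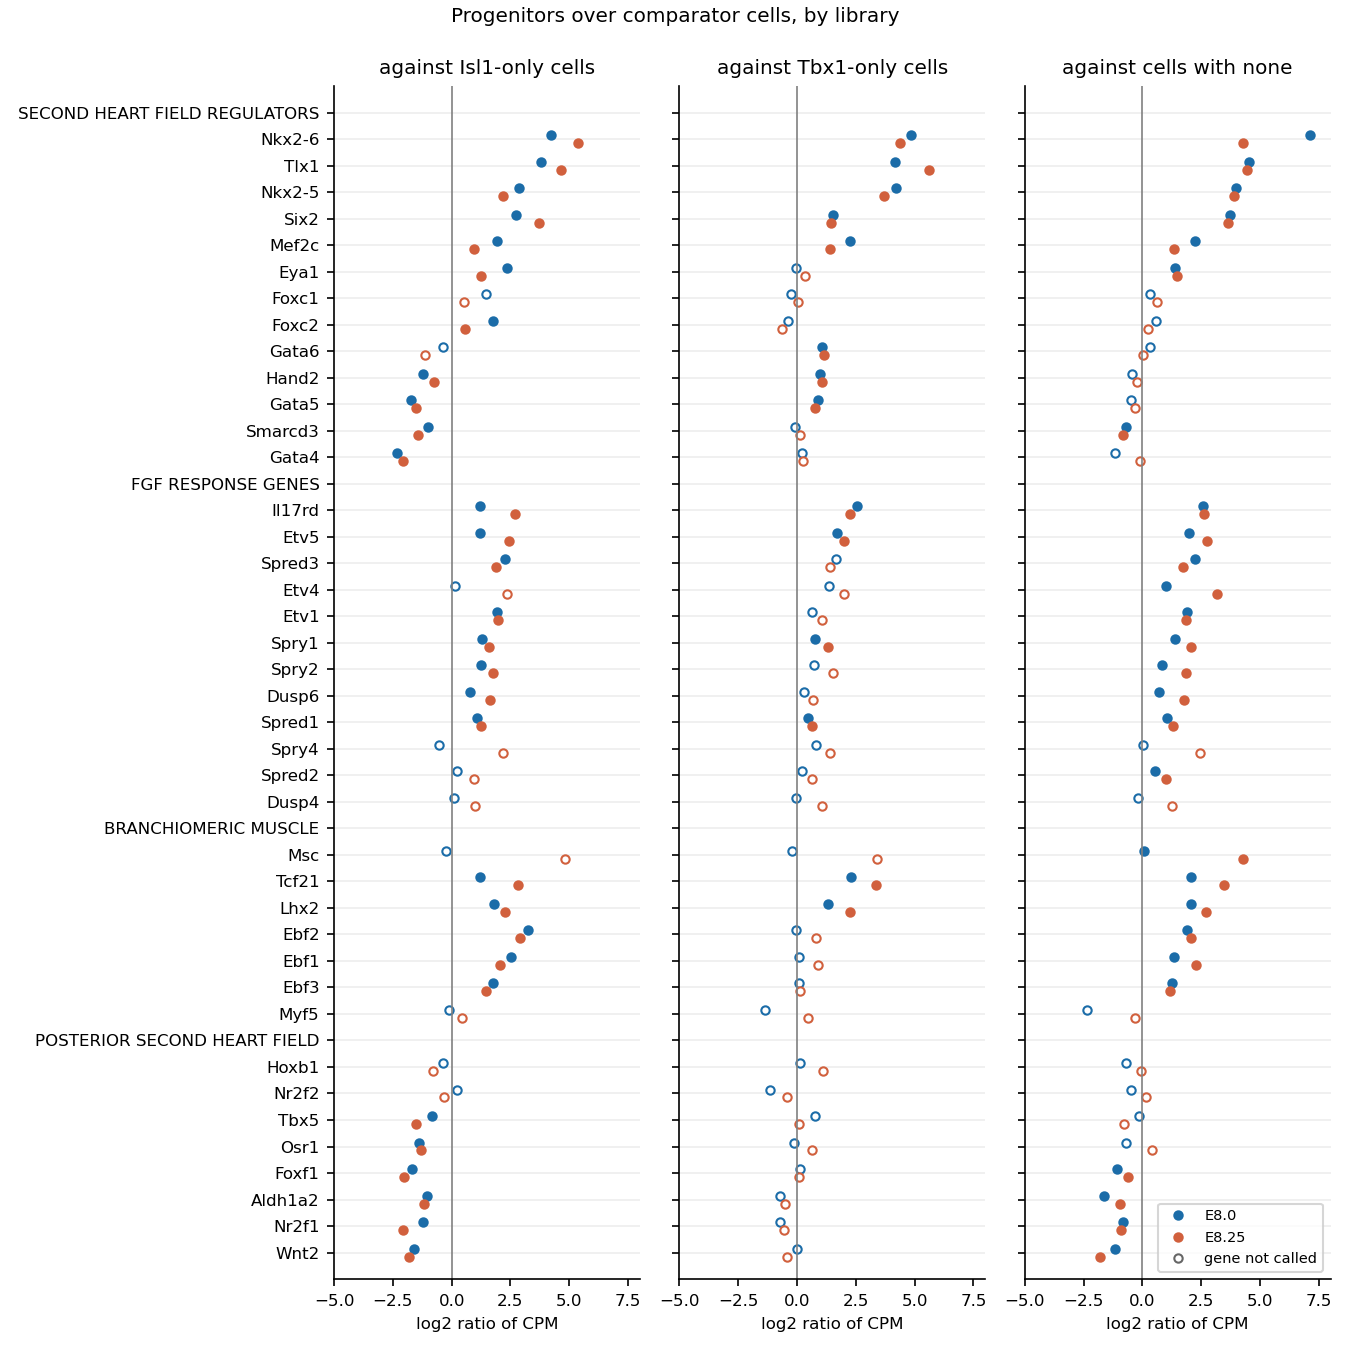
Log2 ratio of CPM in progenitors over each comparator population (columns), with 1 point per library (E8.0 blue, E8.25 orange) for most testable genes of 4 lists, sorted by mean fitted log2 fold change. Filled points mark genes called at an adjusted p under 0.05; the FGF response genes lie mostly to the right of 0, while the posterior second heart field genes lie mostly to the left in the first column.

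Genes that respond to FGF signalling were higher in progenitors. Of the 12 listed, 8 were called higher against Isl1-only cells, 4 against Tbx1-only cells and 10 against cells with none of the 4 genes, and 0 were called lower in any of these comparisons by edgeR. The median log2 fold changes were 1.31, 1.07 and 1.5, against 0.00 to 0.01 over all genes, and all 12 fitted values were above 0 in each comparison. Fgf8 and Fgf10 themselves chose the cells, and none of the 12 genes did. The ETS factor Etv5 stood at 22.7 and 31.7 CPM in progenitors, 9.79 and 5.92 CPM in Isl1-only cells and 6.90 and 7.93 CPM in Tbx1-only cells. Its log2 fold changes were 1.65 ± 0.24 and 1.85 ± 0.23 (edgeR adjusted p = 0.0105 and 0.0134).

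The feedback inhibitors of the pathway moved with the ETS factors. Spry1 was higher against Isl1-only cells by a log2 fold of 1.49 ± 0.19, Spry2 by 1.54 ± 0.24, Spred1 by 1.17 ± 0.09 and the MAP kinase phosphatase Dusp6 by 1.20 ± 0.22 (edgeR adjusted p = 0.00602, 0.0133, 0.00107 and 0.0246). Spred1 was the most even of them, at 54.4 and 43.2 CPM in progenitors and 26.0 and 18.0 CPM in Isl1-only cells. The receptor antagonist Il17rd (Sef) changed most with stage, from 75.7 CPM at E8.0 to 15.5 at E8.25, and was higher than in Tbx1-only cells at both (13.0 and 3.20 CPM, log2 fold change 2.44 ± 0.25, adjusted p = 0.00658). Etv4, Spry4, Spred2 and Dusp4 were not called against Isl1-only cells. Of the FGF receptors, 4 of 5 could be tested, and 0 were called higher and 2 lower against Isl1-only cells by edgeR.

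The same direction was found in the later libraries. These hold other cells, but the gates again sorted them by their Fgf8 and Fgf10 UMIs. With the same gates applied at E9.5, 12 of 12 FGF response genes were higher in gated cells than in Isl1-only cells (median log2 ratio 1.74), and 10 of these ratios had a counting interval above 0. At E10.5, 11 of 12 were higher (median 0.81) and 6 had an interval above 0. Against Tbx1-only cells 11 of 12 were higher in each of these libraries, and Spry1 was lower in both (log2 ratios -0.92 and -0.88, with intervals below 0).

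Several transcripts of branchiomeric muscle precursors were also higher in the summed progenitors. Of 9 listed genes 8 could be tested, and 5 were called higher against Isl1-only cells, 2 against Tbx1-only cells and 6 against cells with none of the 4 genes, with 0 called lower by edgeR. The basic helix-loop-helix factor Tcf21, a regulator of head muscle, stood at 28.6 and 49.9 CPM in progenitors, 12.5 and 7.10 CPM in Isl1-only cells and 5.77 and 4.88 CPM in Tbx1-only cells. Its log2 fold changes were 1.89 ± 0.34 and 2.88 ± 0.35 (edgeR adjusted p = 0.0226 and 0.0115). Lhx2 was also higher than in both populations, from low levels of 6.11 and 11.4 CPM. The early B-cell factors Ebf1, Ebf2 and Ebf3 were higher than in Isl1-only cells (log2 fold changes 2.38, 3.25 and 1.67) and did not pass the test against Tbx1-only cells, with values of 0.48, 0.36 and 0.10.

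Later muscle genes were scarce. Musculin (Msc) had 0.0643 CPM at E8.0, which is 1 UMI, and 6.60 CPM at E8.25. The myogenic factor Myf5 stayed under 1 CPM in both libraries, and Myod1 had 0 UMIs at E8.0, which allows up to 0.193 CPM.

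Most posterior genes were lower than in Isl1-only cells. Of 9 posterior second heart field genes, 6 were called lower than in Isl1-only cells and 0 higher by edgeR (median log2 fold change -1.09), and 0 of 9 were called in either direction against Tbx1-only cells by edgeR (median 0.10, 5 of 9 above 0). After thinning, 38.6% of progenitors at E8.0 and 36.3% at E8.25 held a UMI of Tbx5, Hoxb1, Aldh1a2, Osr1 or Foxf1. The retinoic acid synthesising enzyme Aldh1a2 stood at 34.2 and 31.4 CPM in progenitors and at 71.0 and 71.0 CPM in Isl1-only cells (log2 fold change -1.08 ± 0.16, edgeR adjusted p = 0.0114). Foxf1 stood at 19.6 and 13.3 CPM against 62.8 and 53.7 CPM (-1.80 ± 0.18, adjusted p = 0.00239). Hoxb1, which marks the posterior part of the field, was not called, at -0.53 ± 0.29.

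Of 16 Hox genes, 9 were lower than in Isl1-only cells and 10 lower than in cells with none of the 4 genes. Those called were led by Hoxb6, Hoxc5 and Hoxb5, in the order of their fold changes, and included Hoxd1. None of the 16 was called against Tbx1-only cells by edgeR (median log2 fold change -0.11, 6 of 16 above 0). Few genes of any kind were called there, 0.903% of all tested as higher and 0.681% as lower. Of the 4 genes of the juxtacardiac field, a band of mesoderm at the edge of the cardiac crescent, Hand1, Msx1 and Msx2 were lower than in Isl1-only cells (log2 fold changes -3.35, -2.10 and -2.62). Hand1 stood at 19.4 and 7.70 CPM in progenitors and 245 and 52.8 CPM in Isl1-only cells.

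The genes with the largest changes held other regulators and signals. Among genes at 20 CPM or more in both progenitor libraries, the leading genes over Isl1-only cells were Gm13889, Nrg1, Clu, Gm266, Ebf2, Igfbpl1, Irx1, Six2, Irx5 and Dusp14. Igfbpl1, an insulin-like growth factor binding protein relative, was also among the leading genes over Tbx1-only cells. It stood at 198 and 101 CPM in progenitors, 21.4 and 9.94 CPM in Isl1-only cells and 14.1 and 9.08 CPM in Tbx1-only cells (log2 fold changes 3.24 ± 0.12 and 3.64 ± 0.11, edgeR adjusted p = 0.000128 and 4.41e-05). The ErbB ligand neuregulin 1 (Nrg1) stood at 31.6 and 28.7 CPM and was no higher than 4.95 CPM in any comparator (3.76 ± 0.21 against Isl1-only cells, adjusted p = 0.000342). The Iroquois factor Irx1 was higher than in both populations, with log2 fold changes of 3.11 ± 0.24 and 1.29 ± 0.19.

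The apelin receptor gene Aplnr was raised less. It stood at 93.5 and 68.0 CPM against 33.7 and 33.6 CPM in Isl1-only cells and 46.2 and 39.1 CPM in Tbx1-only cells (log2 fold changes 1.30 ± 0.12 and 0.90 ± 0.12, edgeR adjusted p = 0.00204 and 0.0146). Its ligand gene Apela was among the genes most lowered against Isl1-only cells (-1.91 ± 0.16).

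A further 4 genes from outside the listed sets, singled out after their values were seen, also stood apart, although each was under 20 CPM in 1 progenitor library. Edn1, which encodes the signalling peptide endothelin 1, stood at 9.58 and 21.0 CPM in progenitors and at no more than 1.42 CPM in any comparator. The repressor gene Prdm1 stood at 38.5 and 17.1 CPM against at most 4.50 CPM. Gbx2 stood at 25.1 and 19.9 CPM against at most 5.32 CPM, and Epha2 at 20.1 and 18.8 CPM against at most 5.04 CPM. All of them were called higher than in both single-factor populations, with the log2 fold change of Edn1 at 5.32 and 5.56 (edgeR adjusted p = 0.0019 and 0.003).

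The leading lower genes against Isl1-only cells were Hand1, Phlda2, Msx2, Spin2c, Pmp22, Msx1, Krt8, Hoxb4, Apela and Acta2. Phlda2, an imprinted gene best known from placenta, fell from 3325 and 435 CPM in Isl1-only cells to 283 and 61.0 CPM (log2 fold change -3.21 ± 0.15, edgeR adjusted p = 0.00024). Against Tbx1-only cells the leading lower genes were Lum, Nbl1, Nefl, Ahnak, Tal1, Tagln, Glipr2, Ramp2, Col1a2 and Ppp1r1a. Lumican (Lum) stood at 7.33 and 15.8 CPM against 48.0 and 116 CPM (-2.83 ± 0.23, adjusted p = 0.00268).

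Against cells with none of the 4 genes, the leading lower genes included Cited4, Hbb-bh1, Hba-a1, Klf1, Hba-x, Hand1, Blvrb, Acta2 and Hoxb6. Most are genes of red blood cells, and the 5 erythroid genes of the comparator summed to 4027 and 35673 CPM in these libraries, against 254 and 4183 CPM in progenitors. Without cells in which these genes exceeded 2% of UMIs, 463 genes were higher and 692 lower, 849 of the 1371 calls remained and 17 of the 1371 genes turned direction.

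Few proliferation genes passed the test. Of 20 S-phase genes, 0 were called against Isl1-only or Tbx1-only cells by edgeR, with median log2 fold changes of 0.03 and -0.01, and of 20 G2 and M phase genes 1 was called lower (Cdk1) and 0 were called, respectively. The G2 and M phase medians were -0.11, with 3 of 20 genes above 0, and -0.01, with 8 of 20 above 0. Of 11 cardiomyocyte genes outside the gate, 10 could be tested and 0 were called against either population by edgeR. Across all genes, 3121 and 1788 had an unadjusted p under 0.05 in these comparisons. Of all genes tested, 3.43% were called higher and 2.72% lower against Isl1-only cells, and 0.903% and 0.681% against Tbx1-only cells. The counts in these short lists are near those shares, so they do not set the lists apart from other genes.

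Single genes were found in only some of the progenitors. A cell without a UMI need not lack the transcript, so these shares alone do not show that the cells differed. After thinning to 10000 UMIs, which left out 26 cells at E8.0 and 1 at E8.25, Nkx2-5 was found in 34.6% of 583 progenitors at E8.0 (exact 95% interval 30.8 to 38.7%) and in 21.7% of 355 at E8.25. The Cdh5-expressing cells of the same libraries gave 6.79% and 2.65%. Without thinning, the shares of progenitors were 47.9% and 42.7%. At least 1 UMI of the branchiomeric genes Tcf21, Lhx2 or Msc was found in 24.2% and 40.8% of progenitors, such a UMI together with Nkx2-5 in 10.46% and 13.2%, and neither in 51.6% and 50.7%. Aplnr was found in 43.9% and 35.2% and Nrg1 in 24.9% and 23.4% of progenitors, and both together in 10.1% and 8.45%. The Cdh5-expressing cells held Aplnr more often (71.9% and 69.9%), so detection of Aplnr cannot be read against them as background.

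**Figure D2:**
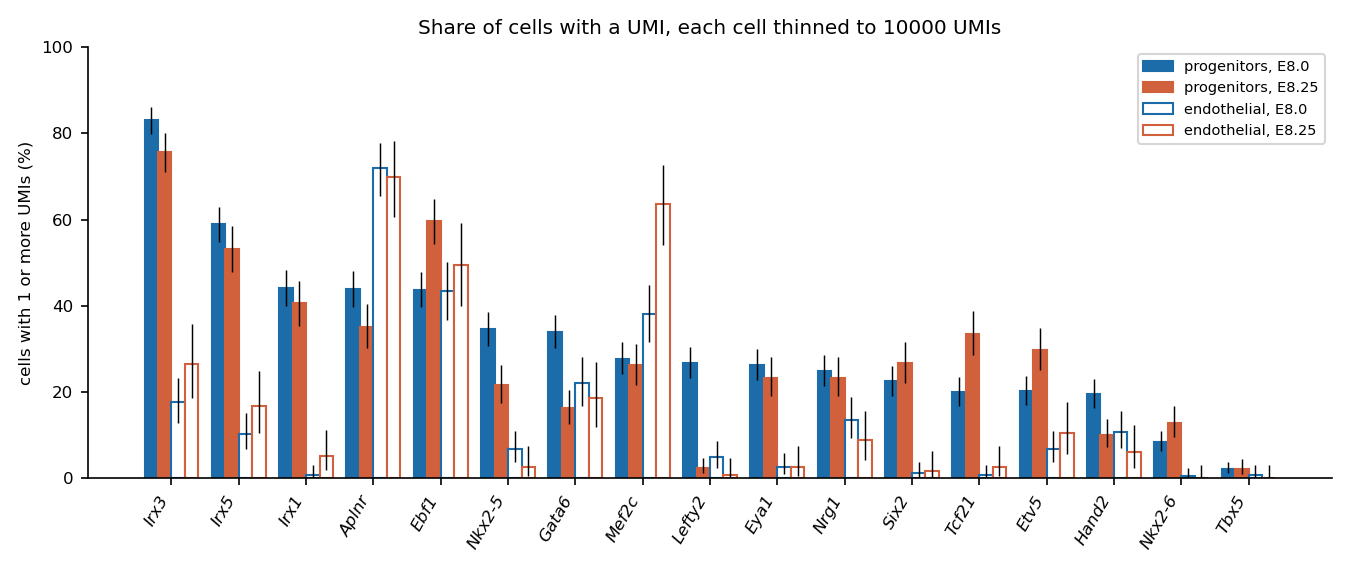
Percent of cells with at least 1 UMI of each gene after every cell was thinned to 10000 UMIs, in progenitors (filled bars) and in cells with 2 or more UMIs of Cdh5 (open bars) at E8.0 (blue) and E8.25 (orange); lines are exact 95% intervals for counting error. Irx1, Nkx2-5, Tcf21 and Six2 are found in the progenitors far more often than in the Cdh5-expressing cells, whereas Aplnr and Mef2c are not.

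Progenitors with and without a UMI of Nkx2-5 differed in what else was found in them. Mef2c was found in 48.0% of those with Nkx2-5 and 17.1% of those without at E8.0, and in 41.6% and 21.9% at E8.25. Tcf21 was found in 25.7% and 17.1% at E8.0 and in 54.5% and 27.7% at E8.25. Igfbpl1 followed the same order, at 79.2% and 49.6% at E8.0 and 67.5% and 39.6% at E8.25. Ebf1 was found less often with Nkx2-5 at E8.0 (24.3% against 54.1%), and the shares at E8.25 were 53.2% and 61.5%. These shares describe cells of 1 library each, and cells are not replicates. The part in them of cells ranked highest by Scrublet was not tested.

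Several genes outside the gate varied among the progenitors with the number of sarcomere genes. At E8.0, 276 progenitors had 0, 233 had 1 and 100 had 2 of the 6 sarcomere genes at 2 or more UMIs, and at E8.25 these numbers were 163, 146 and 47. Nkx2-5 ran along this order from 40.6 to 66.2 to 105.2 CPM at E8.0 and from 19.5 to 40.7 to 67.3 CPM at E8.25, and reached 280 and 219 CPM in the cells excluded for 3 or more sarcomere genes. Mef2c ran from 30.3 to 98.0 CPM within the progenitors at E8.0 and reached 361 CPM just outside, and Igfbpl1 ran from 148 to 311 CPM. 

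Some pharyngeal factors ran in the opposite order and others did not. Ebf1 stood at 146, 101 and 55.9 CPM in E8.0 progenitors with 0, 1 and 2 sarcomere genes and at 3.97 CPM in the excluded cells, and at E8.25 it stood at 189, 155, 120 and 35.7 CPM. Tbx1, a gate gene, stood at 155, 142, 122 and 73.9 CPM at E8.0 in the same order. Tcf21 stood at 25.7, 32.4, 26.9 and 8.74 CPM at E8.0 and at 41.0, 54.5, 62.5 and 35.7 CPM at E8.25, and Lhx2 at 5.23, 5.53, 9.31 and 6.36 CPM at E8.0. Six2 stood at 27.7, 25.7, 28.6 and 8.74 CPM at E8.0, and at E8.25 it fell in this order, at 37.9, 27.2, 24.2 and 12.2 CPM. The FGF target Etv5 stayed between 22.2 and 23.1 CPM across all 4 groups at E8.0 and ran from 28.6 to 32.4 to 38.7 to 31.9 CPM at E8.25. The 12 FGF response genes together summed to 282, 306, 349 and 367 CPM at E8.0 and to 312, 279, 309 and 269 CPM at E8.25, so the order at E8.0 did not recur at E8.25. Sarcomere genes outside the gate did not run alike. Troponin C (Tnnc1) was at 3.90 to 6.001 CPM in all progenitor groups of both stages and at 194 and 146 CPM in excluded cells. Troponin I (Tnni1) instead ran from 21.7 to 34.0 to 96.6 CPM within the E8.0 progenitors and reached 503 CPM in excluded cells. Its E8.25 values were 21.6, 34.0, 47.0 and 538 CPM. Cells ranked highest by Scrublet made up 7.61%, 11.2% and 11% of the 3 progenitor groups and 22.2% of the excluded cells at E8.0, and 1.84%, 5.48%, 8.51% and 4% at E8.25, and their part in this order was not tested.

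**Figure D3:**
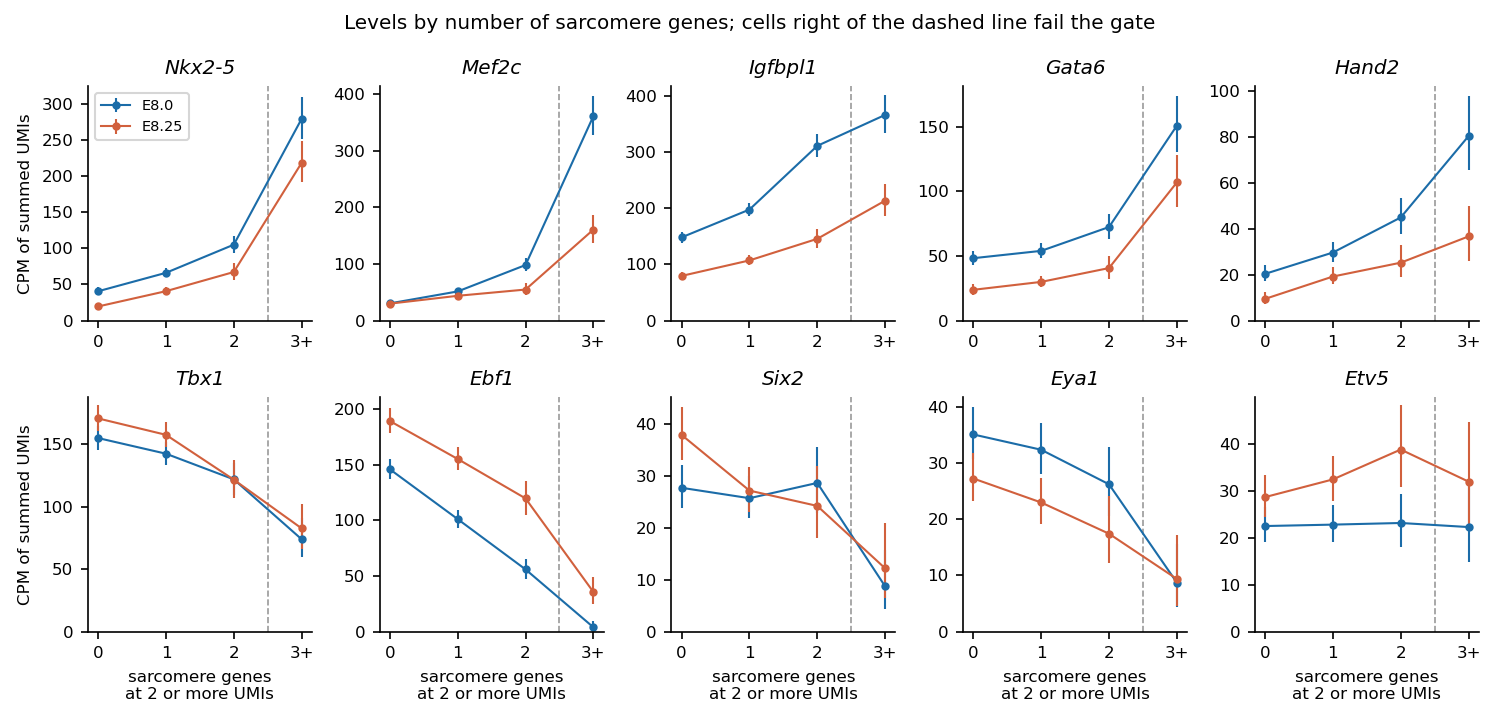
Level in CPM of 10 genes in progenitors grouped by how many of the 6 sarcomere genes had 2 or more UMIs, at E8.0 (blue) and E8.25 (orange); cells right of the dashed line met every other criterion but were excluded, and lines on points are exact Poisson 95% intervals. Nkx2-5, Mef2c, Igfbpl1, Gata6 and Hand2 increase to the right, Tbx1, Ebf1 and Eya1 decrease, Six2 is lowest in the excluded cells, and Etv5 stays between 22.2 and 23.1 CPM at E8.0.

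Splitting the progenitors by ligand gave few differences. Between those with Fgf8 alone and those with Fgf10 alone, 21 of 11078 genes were called higher (0.19%) and 26 lower (0.235%), and these calls rest on only 34 and 29 cells with Fgf10 alone. Cells with Fgf8 alone held more of Ebf1 (log2 fold change 0.79 ± 0.12), Cyp26a1, the retinoic acid degrading enzyme (1.19 ± 0.21), and the Wnt antagonist gene Frzb (1.18 ± 0.23). Cells with Fgf10 alone held more Hand2 (-1.25 ± 0.21), Wnt2 (-1.94 ± 0.24) and Etv2, an endothelial ETS factor (-1.61 ± 0.17). Hand2 stood at 26.1 and 11.3 CPM with Fgf8 alone and at 61.2 and 29.7 CPM with Fgf10 alone. With 1 gene called after thinning before the gate and 13 under a gate of 2 UMIs, this split did not hold up.

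Between E8.0 and E8.25 no test was possible. Of 12117 genes with at least 20 UMIs, 406 were at least 2-fold higher at E8.25 with a counting interval off 0 (3.35%) and 395 were at least 2-fold lower (3.26%). Genes of the Nodal and left-right pathway were the listed group that fell most, with 5 of 6 measured genes lower and 0 higher. The Nodal antagonist gene Lefty2, a marker of left mesoderm, fell between these libraries from 248 to 4.40 CPM (log2 ratio -5.82), and Nodal went from 19.7 CPM to 0 UMIs, which allows up to 0.22 CPM. After thinning, Lefty2 was found in 26.8% and 2.54% of progenitors. At E8.0 the progenitors held more Lefty2 than Isl1-only (69.1 CPM) or Tbx1-only cells (26.5 CPM), and it was called higher than in both (log2 fold changes 1.90 ± 0.12 and 3.25 ± 0.13, edgeR adjusted p = 0.000639 and 0.000138).

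Lefty2 fell in the comparators as well, with log2 ratios between -6.61 and -5.81. The Wnt antagonist gene Sfrp5 went from 43.0 to 6.82 CPM in progenitors (log2 ratio -2.66), and its ratios in the comparators lay between -1.40 and -0.99. Tlx1, Nkx2-6 and Dusp6 were more than 2-fold higher at E8.25 (log2 ratios 1.17, 1.20 and 1.12).

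Many of the stage differences were also found in the comparators. Of the genes 2-fold higher at E8.25, 182 of 341 measured in Isl1-only cells and 166 of 378 in Tbx1-only cells were also 2-fold higher there. Of those 2-fold lower, 229 of 351 and 226 of 351 were also 2-fold lower. By direction alone, 288 of 341 and 341 of 378 were also higher, and 314 of 351 and 326 of 351 also lower. The share of all measured genes that changed in these ways in the comparators was not counted. These overlaps therefore cannot be set against a background, and the Isl1-only sum at E8.25 rests on only 112 cells. Haemoglobin genes led the increases, with Hbb-bh1 at 112 and 1588 CPM in progenitors. Its UMIs were found in 100% of thinned progenitors and of Cdh5-expressing cells at E8.25, which is a like share in cells that should lack it. Several of the other leaders (Rps2-ps6, Rpl7a-ps3, Gm5611 and Rpl36-ps3) are processed copies or predicted genes that can share reads with a near-identical gene, so their values are uncertain.

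The same gates at the later stages selected 408 of 4052 cells at E9.5 and 228 of 8042 at E10.5, and the ligand in the selected cells differed. Fgf8 stood at 47.2 and 5.74 CPM and Fgf10 at 62.2 and 67.8 CPM, and 239 and 204 of the cells had Fgf10 alone. Nkx2-5 stood at 21.0 and 17.2 CPM and was lower than in Isl1-only cells there (log2 ratios -1.06 and -1.25), the opposite of the early libraries. Tcf21 stood at 147 and 213 CPM and Lhx2 at 174 and 98.8 CPM, above all 3 comparators at both stages.

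Of the genes called higher than in Isl1-only cells at the early stages, 69.4% of 409 measured were also higher at E9.5 and 68.5% of 406 at E10.5, against 44.7% and 50% of all genes tested. Of the genes called lower, 82.2% and 76.5% were lower there as well. Their median log2 ratios were -0.42 and -0.26, against -0.03 and 1.7e-05 over all genes tested. Clu, a leading gene at the early stages, went the other way in both later libraries (log2 ratios -0.97 and -1.57). Nrg1, Dusp14, Nkx2-6 and Tlx1 kept ratios above 1.30 against Isl1-only cells in both.

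**Figure D4:**
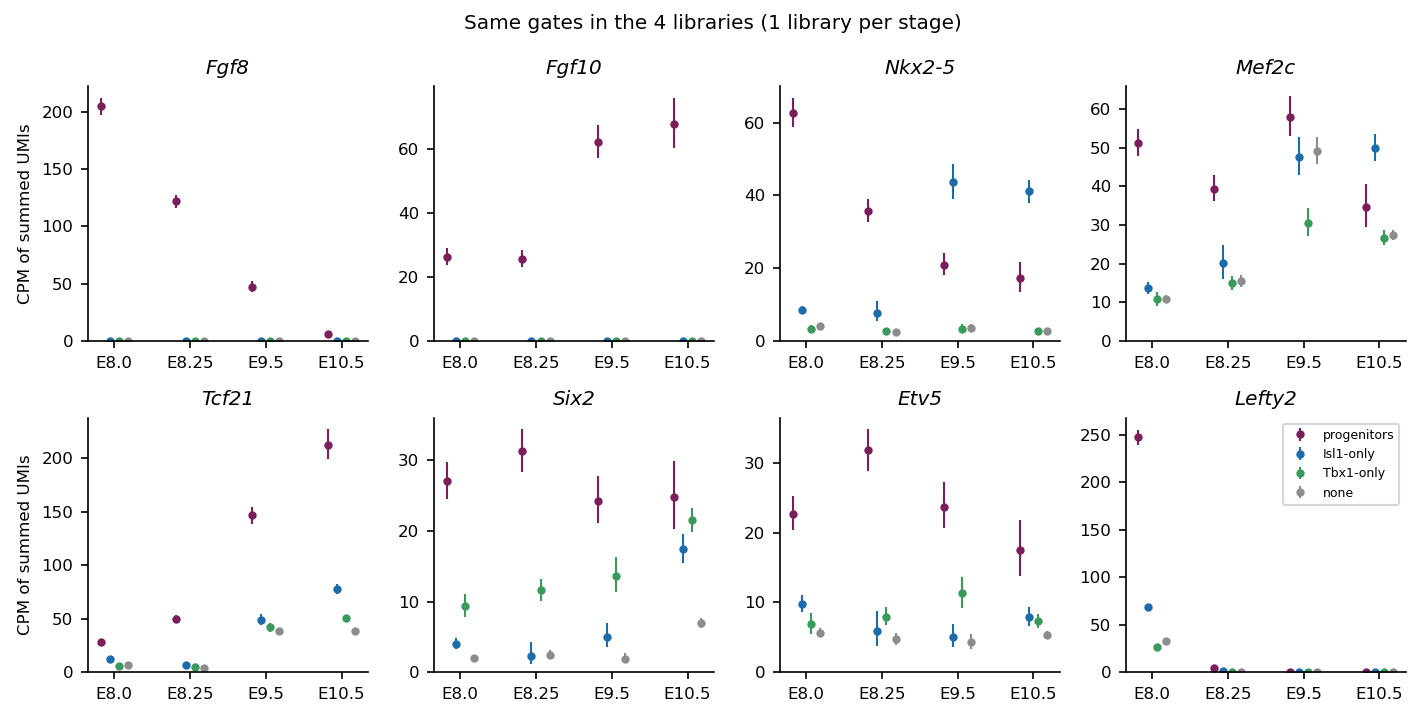
Level in CPM of 8 genes in the cells passing each gate in the 4 libraries, with 1 library per stage; points are populations (progenitor gate purple, Isl1-only blue, Tbx1-only green, none of the 4 genes grey) and lines are exact Poisson 95% intervals for counting error. Fgf8 is lower and Fgf10 higher at E9.5 and E10.5 than before, Nkx2-5 in gated cells falls below Isl1-only cells there, and Lefty2 is at 248 CPM in E8.0 progenitors and at most 4.40 CPM later.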

How the data were processed

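Single-cell transcripts were counted in 4 libraries made with the version 2 droplet kit, which reads 3′ ends. The authors aligned reads to mm10 with Cell Ranger 3.1.0 and deposited raw UMI counts per gene and cell, with no normalization. Cells with at least 1000 genes and at most 10% mitochondrial UMIs were retained, and 27998 genes were read. Median depths per cell are given with the results. Gene rows that share a symbol were kept apart by their identifiers. The members, gene lists and tests were chosen with earlier results of these data known.

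UMIs were summed per library and population (8 sums, and 6 for the ligand split) and tested with edgeR 4.0.16 (quasi-likelihood, TMM, filterByExpr, library as a block, Benjamini-Hochberg over all genes tested). The residual degrees of freedom come from 2 libraries. Stage ratios are ratios of CPM with exact conditional binomial 95% intervals, shares carry Clopper-Pearson intervals, and levels exact Poisson intervals; all cover counting error only. The limit behind a count of 0 is 3 counts. Shares were taken after each cell was thinned to 10000 UMIs (seed 1).

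Named genes were those of listed groups and, per comparison, the 10 called genes with the largest fold in each direction that moved the same way in both libraries and reached 20 CPM in both libraries of the higher population. Doublets were left in; Scrublet (scanpy 1.11.5) scores gave an alternative that removed 0.8% per 1000 cells. Other alternatives were RLE size factors, DESeq2 1.42.0, no filter, no library block, thinning before the gate, a gate of 2 UMIs, all 4 libraries, leaving out each library and, added after seeing the data, leaving out cells with over 2% erythroid UMIs. Gene positions are from RefSeq (GRCm38). Protein and promoter sequences were not used here. A few genes are counted in the totals and are not reported here by name.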

Additional observations from a re-analysis of the deposited data

Results flagged for a closer look

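Some listed genes differed at least 2-fold between progenitors and a comparator in opposite directions in the E8.0 and E8.25 libraries, with each counting interval off 0. In each case the difference between the libraries was not tested. The embryonic globin gene Hbb-y had a log2 ratio over Isl1-only cells of 1.72 at E8.0 and -1.47 at E8.25, and over Tbx1-only cells of 2.36 and -1.40. Smad7, an inhibitor of BMP and TGF-beta signalling, had log2 ratios over Isl1-only cells of -1.23 and 1.08. With 1 sample per stage, no group had enough samples to look for single outlying ones.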

How the results depend on the processing

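The counts of called genes kept within 1.5 times of the reported totals (804, 207, 1371 and 47 against Isl1-only cells, Tbx1-only cells, cells with none of the 4 genes, and for the ligand split) except as follows. With no filter on low counts there were 1334, 538 and 127 calls (against Isl1-only cells, against Tbx1-only cells and for the split), and with DESeq2 313 and 23 (against Tbx1-only cells and for the split). Without the library block there were 29, 0, 34 and 0 calls, the last with 262 genes at an unadjusted p under 0.05. With all 4 libraries there were 380, 2533 and 18 (all but Isl1-only cells), and with a gate of 2 UMIs 334 and 13 (against Tbx1-only cells and for the split). The ligand split gave 1 call after thinning before the gate and 118 without the highest Scrublet scores. The cause of these changes was not tested. Similar counts held partly different genes: of the 804 calls against Isl1-only cells, 438 remained after thinning before the gate (736 calls) and 339 with all 4 libraries (695 calls), and of the 207 against Tbx1-only cells 125 and 97 remained.

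The progenitors made up 3.91%, 3.96%, 5.66% and 1.48% of retained cells (E8.0, E8.25, E9.5, E10.5) after thinning before the gate and 3.42%, 6.80%, 3.85% and 0.448% with a gate of 2 UMIs. Without cells of over 2% erythroid UMIs they made up 13.5% at E8.25 and 3.27% at E10.5. The stage comparison gave 477 genes after thinning before the gate, in place of 801, with 205 higher at E8.25 and 272 lower.

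Most changes of direction among named and listed genes fell in the ligand split. After thinning before the gate, Bex1 (0.0075), Car4 (1.21), Fam188a (0.51), Krt8 (0.70), Nrp1 (0.60), Pmp22 (0.089) and Ebf1 (-0.72) turned, and with a gate of 2 UMIs Cyp26a1 (-0.0080), Krt8 (0.063) and Pmp22 (0.013) did. With all 4 libraries Notum turned to 0.39 against Isl1-only cells and 0.17 against cells with none of the 4 genes, and Sfrp2 to -0.22 against the latter. Against cells with none of the 4 genes, Cdx4 was -2.29 without the E8.25 library and 0.49 without the E8.0 library, and Lefty1 was 3.53 and -1.38. Of the other log2 fold changes of called listed or leading genes, 1950 kept their call or value, 392 kept their direction without passing the test, and 232 moved by more than 1 SE when a library was left out. The library block already pairs the populations of a library. By replicate number no paired analysis was possible because each stage has 1 library.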

Other observations

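Genes of BMP, Notch, Wnt and retinoic acid signalling were compared in the same way. Of 8 BMP ligands and receptors, Bmp2 and Bmp4 were called lower in progenitors than in Isl1-only cells and 0 were called higher by edgeR. Against Tbx1-only cells 0 of these 8 were called in either direction (median log2 fold change 0.38, 7 of 8 above 0). Of 7 testable BMP response genes and antagonists, Grem1 was called higher against Isl1-only cells, Id2 and Id3 against Tbx1-only cells (median 0.98), and Grem1, Id1, Id2 and Id3 against cells with none of the 4 genes. Id2 stood at 253 and 324 CPM in progenitors (E8.0 and E8.25) against 107 and 146 CPM there (log2 fold change 1.19 ± 0.11, edgeR adjusted p = 0.00503), and Id3 at 491 and 726 CPM against 252 and 362 CPM (0.98 ± 0.09, adjusted p = 0.00541). Against Isl1-only cells their log2 fold changes were 0.21 ± 0.11 and 0.36 ± 0.09 and did not pass the test (adjusted p = 0.29 and 0.0646).

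Of the 11 Notch pathway genes 10 could be tested, and the transcriptional repressor Hey1 was called against both single-factor populations. It stood at 30.6 and 26.8 CPM in progenitors, 17.8 and 6.86 CPM in Isl1-only cells and 8.92 and 6.14 CPM in Tbx1-only cells. The Wnt antagonist gene Frzb stood at 42.8 and 22.6 CPM against 12.5 and 11.1 CPM in Isl1-only cells (log2 fold change 1.55 ± 0.21, edgeR adjusted p = 0.00777) and at 31.3 and 15.2 CPM in Tbx1-only cells, where the difference did not pass the test (adjusted p = 0.273). Of 11 testable retinoic acid pathway genes, Aldh1a2 alone was called against Isl1-only cells.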
